A study of Homo sapiens with 6 samples.

Results

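The Hippo pathway was followed here through 10 of its genes in naive and primed human embryonic stem cells. The genes were YAP1 and WWTR1 (which encodes TAZ), TEAD1, TEAD2 and TEAD3, LATS1 and LATS2, AMOTL2, and CCN1 and CCN2. They were taken by name from a deposited table of 48183 gene names, and each of the 10 was found under 1 identifier. Bulk RNA-seq had been made from 6 libraries of a human embryonic stem cell line with an EOS-GFP reporter, which the sample labels call H1 and the text of the study calls H9. The 4 naive libraries held cells induced with AICAR, an activator of the kinase AMPK (AICAR 1 and AICAR 2), with a constitutively active p38 kinase (CA-p38), or with valproic acid (VPA), an inhibitor of histone deacetylases. The AICAR and VPA cells came from the EOS line. The CA-p38 cells came from a derivative of it that carries a doxycycline-inducible CA-p38 transgene. When that derivative was made, doxycycline was given to induce mCherry, and mCherry-positive cells were sorted. VPA induction itself had been done in PD0325901 and LIF without XAV939 or Go6983. Per the labels, naive cells were passaged in PXGL medium (PD0325901, XAV939, Go6983 and LIF) with mouse fibroblast feeders and sorted as CD75+ and SUSD2+. The study also describes a later move of CA-p38 cells to PXGL without feeders, and whether the CA-p38 library was made before or after it is not stated. The study withdrew AICAR and doxycycline after the induction period, and all 4 naive libraries came from later passages. The AICAR libraries came from consecutive passages of converted cells. The 2 primed libraries held the EOS line and the CA-p38 EOS line, neither of them induced to the naive state. Both lines were grown without feeders in StemFit medium on Matrigel and not sorted for CD75 and SUSD2. The study set these libraries beside published naive profiles, which were not used here, and the comparison of naive cells with their primed parents is the one that the 6 libraries allow. State, medium, feeders and sort cannot be told apart in this design, and neither can the CA-p38 method and the CA-p38 line within the naive libraries. XAV939, a tankyrase inhibitor, was in the medium of the naive cells, and its part in the values was not tested.

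In the Hippo pathway, the kinases MST1 and MST2 (genes STK4 and STK3), with the adaptor SAV1, activate LATS1 and LATS2 together with the MOB1 proteins. The LATS kinases phosphorylate the coactivators YAP and TAZ, which keeps them in the cytoplasm and marks them for degradation. Coactivators that enter the nucleus bind the TEAD factors, which recognize the 6 bases GGAATG, and induce targets such as CCN1 (CYR61) and CCN2 (CTGF). Angiomotins such as AMOTL2 bind YAP at junctions and on actin, and AMOTL2 and LATS2 are also known as YAP targets. In the embryo the pathway separates the outer trophectoderm, where YAP and TEAD4 are active, from the inner cells. Since the pathway acts on protein phosphorylation and localization, RNA levels describe its parts and targets and not its activity.

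The promoter of CCN2 is shown because 3 copies of the TEAD letters lie in it, and shorter stretches are shown for YAP1 and AMOTL2 among the 10 genes and for 2 target genes described later. Sequences were read from the RefSeq promoter table (GRCh38.p14), which spans 250 bases before to 50 bases after each start site, and are written 5′ to 3′ on the strand of the gene. Capitals mark GGAATG or, where the match is on the other strand, CATTCC.
CCN2, chr6:131951373-131951622, minus strand, the 250 bases before the start: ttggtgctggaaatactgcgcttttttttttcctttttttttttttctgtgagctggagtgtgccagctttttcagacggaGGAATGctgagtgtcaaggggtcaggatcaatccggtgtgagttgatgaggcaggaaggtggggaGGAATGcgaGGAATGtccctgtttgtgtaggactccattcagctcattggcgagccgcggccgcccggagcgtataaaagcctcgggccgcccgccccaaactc
YAP1, chr11:102110273-102110302, plus strand, match starting 162 bases before the start: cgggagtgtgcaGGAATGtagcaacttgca
AMOTL2, chr3:134374499-134374528, minus strand, match starting 69 bases before a RefSeq start that lies inside the annotated gene: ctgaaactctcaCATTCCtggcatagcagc
ANKRD1, chr10:90921290-90921319, minus strand, match starting 220 bases before the start: atcaccaccaaaGGAATGgccctctcacat
ANKRD1, chr10:90921198-90921227, minus strand, match starting 128 bases before the start: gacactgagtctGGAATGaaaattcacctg
PTPN14, chr1:214551785-214551814, minus strand, match starting 200 bases before the start: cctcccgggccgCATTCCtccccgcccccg

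The table held windows for 8 of the 10 genes, 12 windows in all, and those of 4 genes held the letters. The matches in CCN2 started 169, 104 and 95 bases before the start. The match of LATS2 lay 10 bases after its start. Of all 35116 windows of 300 bases, 14% held at least 1 match on either strand and 0.128% (45 windows) held 3 or more. No match in these windows was found for WWTR1, TEAD2, TEAD3 and LATS1. Among other genes described later, a window of AXL held 1 match, and no match was found for F3, NF2, AMOT and AMOTL1. TEAD1 and CCN1 were not matched in the table. A match is a description of letters and was not tested as a binding site.

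Library totals ran from 46823699 to 54277064 counts, and the genes were well above the counting limit, with 396 to 9503 counts per gene and library. The labels of state held in marker genes. The summed level of 8 naive markers, KLF17, SUSD2 and DPPA3 among them, was 5244 to 6077 CPM (counts scaled to the size of each library with TMM factors) in the naive and 7.73 to 11.5 CPM in the primed libraries. That of 8 primed markers was 69.7 to 88.1 CPM against 2843 to 3429 CPM. Of the 26497 genes in the fit, 53.1% differed between the states (quasi-likelihood test of edgeR, Benjamini-Hochberg adjustment, threshold 0.05), with 26% higher and 27% lower in naive cells. The CPM of the 4 naive and the 2 primed libraries did not overlap for 64.9% of genes. Against that background, 8 of the 10 Hippo genes passed the threshold, 7 of them lower in naive cells and 1 higher. For 9 of the 10 the states did not overlap. The median log2 fold change, naive minus primed, was -1.19 over the 10 genes and 0.11 over all genes tested. Fewer cells of a type and less RNA per cell cannot be told apart in these bulk samples. The count of 8 ran from 8 to 9 over the 15 alternatives of processing, with each library left out among them. The libraries of a state differ in induction or line, apart from AICAR 1 and AICAR 2, for which separate cultures are not stated. The p-values thus measure the spread between these libraries, in which induction, line and passage are mixed.

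**Figure D1:**
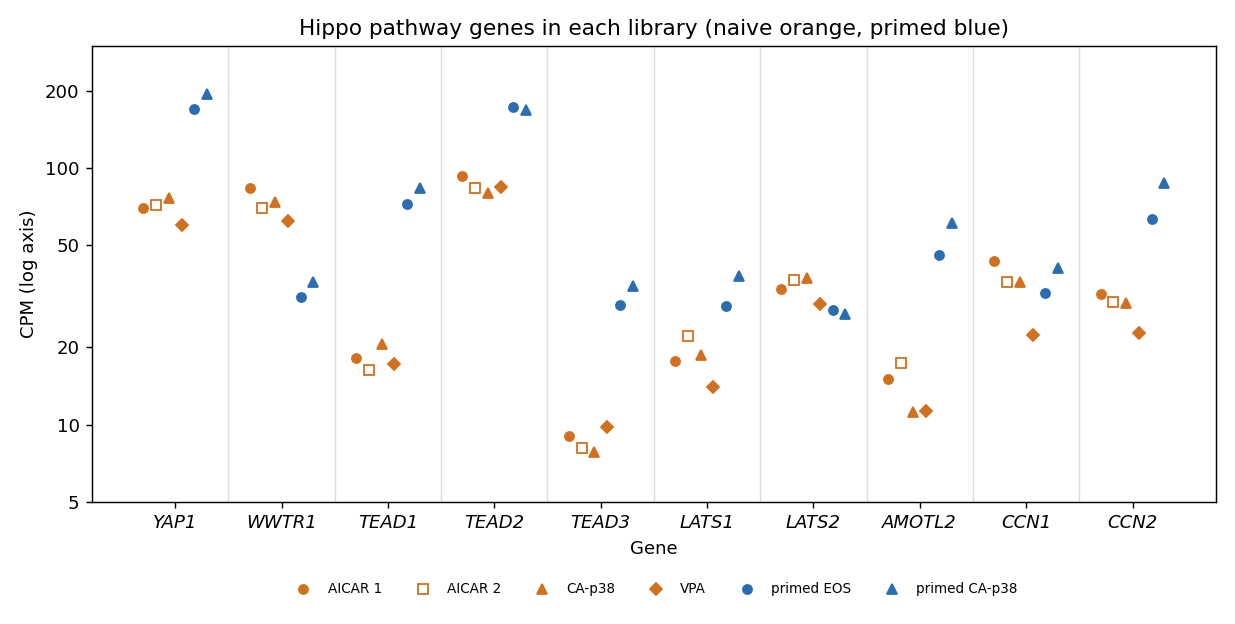
CPM (log axis) of the 10 Hippo pathway genes in each of the 4 naive (orange) and 2 primed (blue) libraries, 1 point per library and gene. YAP1 ran from 60.3 to 76.7 CPM in naive and from 171 to 194 CPM in primed libraries, WWTR1 lay higher in naive libraries, and the points of CCN1 overlap between the states.

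The coactivators moved in opposite directions. YAP1 (ENSG00000137693, chromosome 11 from 102110447 to 102233424, plus strand, GRCh38) had 69.7, 72.1, 76.7 and 60.3 CPM in AICAR 1, AICAR 2, CA-p38 and VPA cells, against 171 and 194 CPM in primed EOS and primed CA-p38 cells. Every naive library lay below both primed ones, 69.7 ± 6.94 CPM (SD, n = 4) against 183 ± 16.4 CPM (SD, n = 2). YAP1 was 2.62-fold lower in naive cells, with a log2 fold change of -1.39 (SE, the standard error, 0.11, 95% interval -1.64 to -1.14, adjusted p = 3.8e-07). WWTR1 (ENSG00000018408, chromosome 3 from 149517235 to 149736714, minus strand), whose product TAZ is the paralog of YAP, had 83.7, 69.9, 73.8 and 62.2 CPM in AICAR 1, AICAR 2, CA-p38 and VPA cells and 31.6 and 36.1 CPM in primed EOS and primed CA-p38 cells. It was the only one of the 10 genes past the threshold in the naive direction, 2.14-fold higher with a log2 fold change of 1.10 (SE 0.14, adjusted p = 2.21e-05). Per kilobase of the canonical transcript, the ratio of WWTR1 to YAP1 was 1.29, 1.04, 1.03 and 1.11 in the naive libraries in the same order and 0.198 and 0.199 in the primed ones. The ratio was thus 5.59-fold higher in naive cells, and this fold does not depend on the lengths used. An exact two-sided permutation test of 4 against 2 libraries gave p = 0.0667, the smallest that its 15 assignments can give, so that no ratio could reach 0.05, and the adjusted value over the 7 ratios tested was also 0.0667. The sum of both coactivators was 27.3 ± 2.69 CPM per kb (SD, n = 4) in naive and 40.6 ± 3.65 CPM per kb (SD, n = 2) in primed cells. Noncoding genes on the opposite strand overlap exons of both, AP000942 and AP001527 at YAP1 with 3.22% and 1.74% of its counts and WWTR1-AS1 at WWTR1 with 3.71%. Whether reads were counted by strand is not stated.

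**Figure D2:**
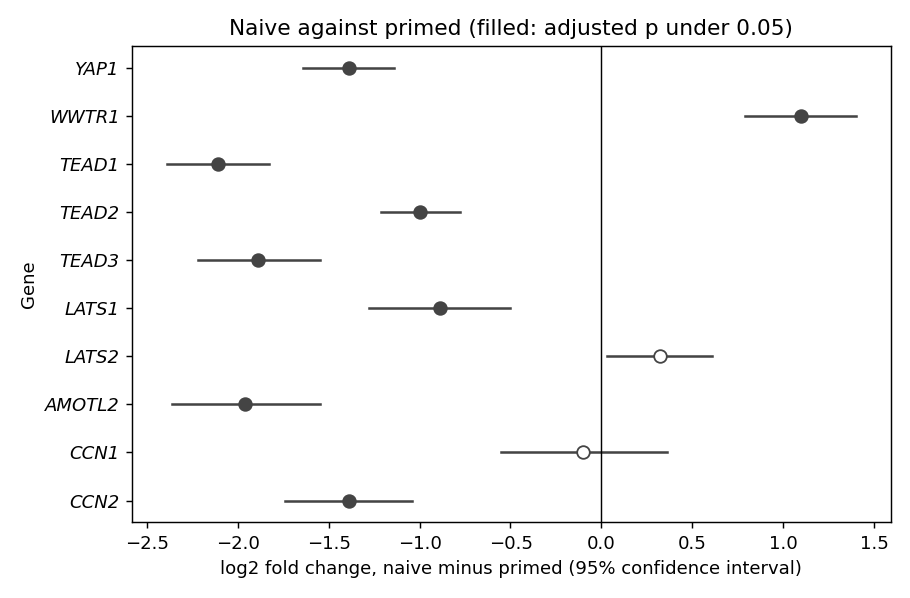
Log2 fold change, naive minus primed, of each Hippo pathway gene with its 95% confidence interval, from the fit of 4 naive against 2 primed libraries. Filled points passed an adjusted p of 0.05 over all genes; WWTR1 lies at 1.10, the 7 lower genes between -2.11 and -0.89, and the open points of LATS2 and CCN1 at 0.32 and -0.10.

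TEAD1, TEAD2 and TEAD3, DNA-binding factors of the same family, were all lower in naive cells. TEAD1 (ENSG00000187079, chromosome 11 from 12674421 to 12944737, plus strand) had 18.2, 16.3, 20.6 and 17.3 CPM in AICAR 1, AICAR 2, CA-p38 and VPA cells and 72.8 and 83.5 CPM in primed EOS and primed CA-p38 cells. It had the lowest log2 fold change of the 10 genes, -2.11 (SE 0.13, adjusted p = 2.4e-08), which is 4.32-fold lower. TEAD3 (ENSG00000007866, chromosome 6 from 35473597 to 35497079, minus strand) had 9, 8.09, 7.84 and 9.76 CPM in the naive libraries in that order and 29.3 and 34.8 CPM in the primed ones. Its log2 fold change was -1.89 (SE 0.15, adjusted p = 3.94e-07). TEAD2 (ENSG00000074219, chromosome 19 from 49340595 to 49362457, minus strand) had 93.5, 83.5, 80.4 and 84.8 CPM against 173 and 169 CPM, with a log2 fold change of -1.0 (SE 0.10, adjusted p = 2.34e-06). None of these 3 genes overlapped between the states. The family's remaining gene, TEAD4, which is required for the trophectoderm in the mouse embryo, was not among the 10. It had 117, 106, 106 and 103 CPM against 64.8 and 81.6 CPM, and was 1.47-fold higher in naive cells (log2 fold change 0.56, SE 0.12, adjusted p = 0.00163). CD37, on the opposite strand of TEAD2, had 2.57% of its counts.

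The makeup of the TEAD family was set side by side. On the scale of CPM per kb, TEAD4 made up 58.8%, 59%, 59.9% and 57.6% of the summed TEAD1 to TEAD4 level in AICAR 1, AICAR 2, CA-p38 and VPA cells, and 28% and 32.7% in primed EOS and primed CA-p38 cells. TEAD2 made up 37%, 36.7%, 35.5% and 37.5% against 59% and 53.2%. TEAD3 ran from 2.53% to 3.14% in naive and from 7.27% to 7.99% in primed libraries, and TEAD1 from 1.66% to 2.11% and from 5.72% to 6.08%. Each of the 4 shares separated the states with an exact permutation p of 0.0667, the smallest possible here. TEAD4 ranked above TEAD2 in all 4 naive libraries and below it in both primed ones. The shares and the order within a library rest on the canonical transcript lengths. These were 9.42 kb for TEAD1, 2.17 kb for TEAD2, 2.99 kb for TEAD3 and 1.71 kb for TEAD4, and the isoforms in use were not measured. In CPM without lengths, TEAD4 likewise lay above TEAD2 in all 4 naive libraries and below it in both primed ones. The summed TEAD level was 107 ± 6.07 CPM per kb (SD, n = 4) in naive and 140 ± 7.48 CPM per kb (SD, n = 2) in primed cells. Trophectoderm marker genes, summed over 9, had 17.1 to 18.2 CPM in naive and 4.12 to 5.46 CPM in primed libraries. Of the 6 that could be tested, 4 were higher in naive cells and 2 did not pass the threshold. Their part in the level of TEAD4 was not tested.

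**Figure D3:**
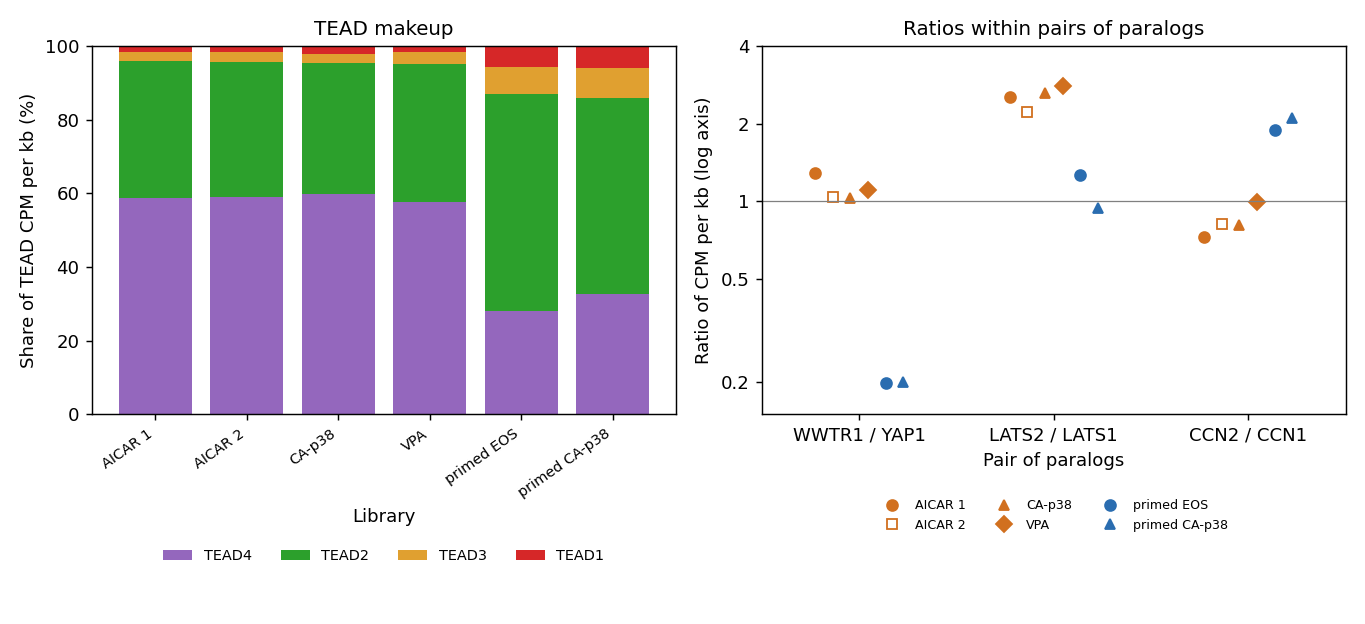
Left, the share (%) of TEAD1, TEAD2, TEAD3 and TEAD4 in their summed CPM per kb in each library, as stacked bars; right, ratios of CPM per kb within 3 pairs of paralogs (log axis), 1 point per library. TEAD4 holds 57.6% to 59.9% in naive and 28% to 32.7% in primed libraries, and WWTR1 over YAP1 lies near 1 in naive and at 0.198 and 0.199 in primed libraries.

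Of the LATS kinases, which phosphorylate YAP and TAZ, LATS1 was lower in naive cells and LATS2 missed the threshold. LATS1 (ENSG00000131023, chromosome 6 from 149658153 to 149718105, minus strand) had 17.7, 22.1, 18.7 and 14 CPM in AICAR 1, AICAR 2, CA-p38 and VPA cells and 29 and 38 CPM in primed EOS and primed CA-p38 cells. The log2 fold change of LATS1 was -0.89 (SE 0.18, adjusted p = 0.00107), and -0.67 (adjusted p = 0.0321) without primed CA-p38. LATS2 (ENSG00000150457, chromosome 13 from 20973036 to 21061586, minus strand) had 33.7, 36.8, 37.2 and 29.6 CPM against 27.9 and 27.1 CPM. Its naive values all lay above the primed ones, but the difference of 0.32 on the log2 scale (95% interval 0.03 to 0.61) missed the threshold, with an adjusted p of 0.064. It passed with library totals as scaling (0.42, adjusted p = 0.0232), with at least 10 counts required in every library (0.36, adjusted p = 0.0348) and without VPA (0.37, adjusted p = 0.0337), and the adjusted p ran from 0.0232 to 0.21 over its alternatives. LATS2 over LATS1, per kb, was 2.53, 2.21, 2.64 and 2.8 in naive and 1.27 and 0.947 in primed libraries, 2.31-fold higher in naive cells (exact permutation p = 0.0667, the smallest possible). The sum of both kinases was 8.65 ± 1.06 CPM per kb (SD, n = 4) and 9.51 ± 0.761 CPM per kb (SD, n = 2), which overlap.

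AMOTL2 (ENSG00000114019, chromosome 3 from 134355347 to 134375479, minus strand), the angiomotin among the 10 genes, had 15.1, 17.4, 11.2 and 11.3 CPM in AICAR 1, AICAR 2, CA-p38 and VPA cells and 45.8 and 61.1 CPM in primed EOS and primed CA-p38 cells. It was 3.88-fold lower in naive cells (log2 fold change -1.96, SE 0.19, adjusted p = 1.78e-06). Its paralogs were lower too and further from 0. AMOTL1 had 6.69 to 11.1 CPM in naive and 156 to 217 CPM in primed libraries (log2 fold change -4.44, SE 0.18, adjusted p = 8.46e-10). AMOT had 2.93 to 6.79 CPM against 41.6 to 47.3 CPM (log2 fold change -3.22, SE 0.26, adjusted p = 3.3e-07). All 3 angiomotin genes were thus below both primed libraries in every naive library.

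Of the secreted matricellular targets, CCN2 was lower in naive cells and CCN1 did not pass the threshold. CCN2 (ENSG00000118523, chromosome 6 from 131948176 to 131951372, minus strand), whose promoter is printed above, had 32.4, 30.2, 29.9 and 22.7 CPM in AICAR 1, AICAR 2, CA-p38 and VPA cells and 63.2 and 87.9 CPM in primed EOS and primed CA-p38 cells. It was 2.62-fold lower in naive cells (log2 fold change -1.39, SE 0.16, adjusted p = 9.45e-06). CCN1 (ENSG00000142871, chromosome 1 from 85580761 to 85584589, plus strand) had 43.4, 36, 35.9 and 22.3 CPM against 32.7 and 40.8 CPM. The states overlapped for CCN1, and its difference of -0.10 on the log2 scale had a 95% interval of -0.55 to 0.36 (adjusted p = 0.727). The sign of that difference turned with library totals as scaling (0.01), without VPA (0.05) and without primed CA-p38 (0.08). CCN2 over CCN1, per kb, was 0.728, 0.816, 0.812 and 0.992 in naive and 1.89 and 2.1 in primed libraries, 2.39-fold lower in naive cells (exact permutation p = 0.0667, the smallest possible). The remaining CCN genes were rare. CCN3 reached at most 0.594 CPM and CCN5 at most 0.99 CPM in any library, neither passed the threshold (adjusted p of 0.752 and 0.516), and CCN4 and CCN6 had too few counts to be tested.

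Per kilobase, TEAD2 had the highest level of the 10 genes in both states, 39.3 CPM per kb in naive and 78.6 in primed cells, and did not overlap the gene ranked next. In naive cells CCN1 (15.1), WWTR1 (14.4), YAP1 (12.9) and CCN2 (12.3 CPM per kb) followed, each overlapping its neighbour in the order. LATS2 came next at 6.19 CPM per kb, and TEAD3 (2.9), AMOTL2 (2.83), LATS1 (2.46) and TEAD1 (1.92) closed the order with neighbouring ranges that overlap. In primed cells YAP1 (33.8) and CCN2 (32.3 CPM per kb) followed TEAD2 and overlapped each other. CCN1 (16.1), AMOTL2 (11), TEAD3 (10.7), TEAD1 (8.3) and WWTR1 (6.73 CPM per kb) came next, of which AMOTL2 and TEAD3 overlapped. LATS2 (4.96) and LATS1 (4.55 CPM per kb) closed the primed order and overlapped.

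The other genes of the pathway were described from 5 lists of 85 genes in all, of which 83 could be tested. Of these, 15 rose and 47 fell from primed to naive cells while 21 did not pass the threshold, with a median log2 fold change of -0.59, beside the 26% higher and 27% lower among all genes.

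Among 22 core kinases and their adaptors, 5 were higher, 11 lower and 6 not past the threshold, with a median log2 fold change of -0.21. NF2, which encodes Merlin, an upstream activator of LATS at the membrane, had 139, 142, 126 and 118 CPM in AICAR 1, AICAR 2, CA-p38 and VPA cells and 33.2 and 38.2 CPM in primed EOS and primed CA-p38 cells. It was 3.67-fold higher in naive cells (log2 fold change 1.88, SE 0.13, adjusted p = 6.23e-08). MOB1A, a LATS coactivator, was 1.77-fold higher (163 ± 8.98 CPM, SD, n = 4, against 92.4 ± 1.85 CPM, SD, n = 2), and its paralog MOB1B differed by 0.17 on the log2 scale (95% interval -0.09 to 0.43, adjusted p = 0.257). Of the MST kinases, STK4 was 2.21-fold lower (30.6 ± 2.22 CPM, SD, n = 4, against 67.7 ± 3.37 CPM, SD, n = 2), and STK3 was at 25.6 to 29.4 CPM in naive and 26.2 to 30.2 CPM in primed libraries. The difference of STK3 was -0.03 on the log2 scale, with a 95% interval of -0.31 to 0.26 (adjusted p = 0.877). SAV1, the MST scaffold, was lower by a log2 fold change of -0.42 (adjusted p = 0.0163), a call that was lost without primed EOS (-0.28, adjusted p = 0.191) and with library totals as scaling (-0.32, adjusted p = 0.0585). At the ends of the list were MAP4K1 (log2 fold change 2.34) and TNIK (-10.83), both of the MAP4K group of kinases that can phosphorylate LATS, and the scaffold WWC3 (-3.48). TNIK had 154 and 207 CPM in the primed libraries and 0.0198 to 0.141 CPM in the naive ones.

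Among 21 genes of polarity, junction and cadherin inputs, 5 were higher, 13 lower and 3 not past the threshold, with a median log2 fold change of -0.97. FAT3, an atypical cadherin, had 0.405 to 0.707 CPM in naive and 104 to 126 CPM in primed libraries (log2 fold change -7.81). The polarity genes CRB3 (1.68) and SCRIB (0.96) were higher in naive cells. PTPN14, a phosphatase that binds YAP and is itself a YAP target, had 16.3 to 26.8 CPM in naive and 67.9 to 91.2 CPM in primed libraries (log2 fold change -1.78, adjusted p = 3.32e-06). Of 18 genes of the STRIPAK complex, a phosphatase assembly that removes the activating phosphate from MST kinases, 0 were higher, 11 were lower and 7 did not pass the threshold, with a median of -0.49. At an unadjusted p under 0.05 the number higher was also 0, and it was 0 with DESeq2 and with limma-voom. The lowest fold changes were those of the kinase STK26 (-4.50, with 9.44 to 15 CPM against 271 to 287 CPM) and the scaffold subunit PPP2R1B (-2.88).

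The list of TEAD partners and co-repressors held 7 genes, which include TEAD4, itself a TEAD factor and described above. Of these, 5 could be tested: TEAD4 was higher and the other 4 were lower. VGLL4, which competes with YAP for TEAD, was 1.84-fold lower (25.9 ± 2.81 CPM, SD, n = 4, against 47.5 ± 3.16 CPM, SD, n = 2), and VGLL3 was 3.25-fold lower at 0.883 to 2.03 CPM against 4.06 to 4.15 CPM. VGLL1 and VGLL2 had too few counts to be tested. Of 18 genes of a YAP and TAZ target signature, which leaves out the 10 genes themselves, 4 were higher, 9 lower and 5 not past the threshold, with a median log2 fold change of -0.95. F3, tissue factor, had 77.2, 83.6, 60.6 and 52.5 CPM in AICAR 1, AICAR 2, CA-p38 and VPA cells and 5.09 and 7.2 CPM in the primed libraries (log2 fold change 3.48, SE 0.23). MYOF, a membrane repair gene, was also higher (1.5). The receptor tyrosine kinase AXL was lower (-3.44, at 1.47 to 2.81 CPM against 21.5 to 25.9 CPM). The promoter window of F3 held no copy of the TEAD letters, and a window of AXL held 1. ANKRD1, with 2 copies in its promoter, had 0.589, 0.664, 0.317 and 0.65 CPM in the naive libraries in that order and 2.55 and 7.91 CPM in primed EOS and primed CA-p38 cells. Its log2 fold change of -3.23 (SE 0.43, adjusted p = 3.59e-05) became -2.19 without primed CA-p38 and -3.84 without primed EOS. Of the signature genes, 4 were thus higher and 9 lower in naive cells, beside 26% higher and 27% lower among all genes. Among the 10 genes, 1 was higher and 7 were lower.

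**Figure D4:**
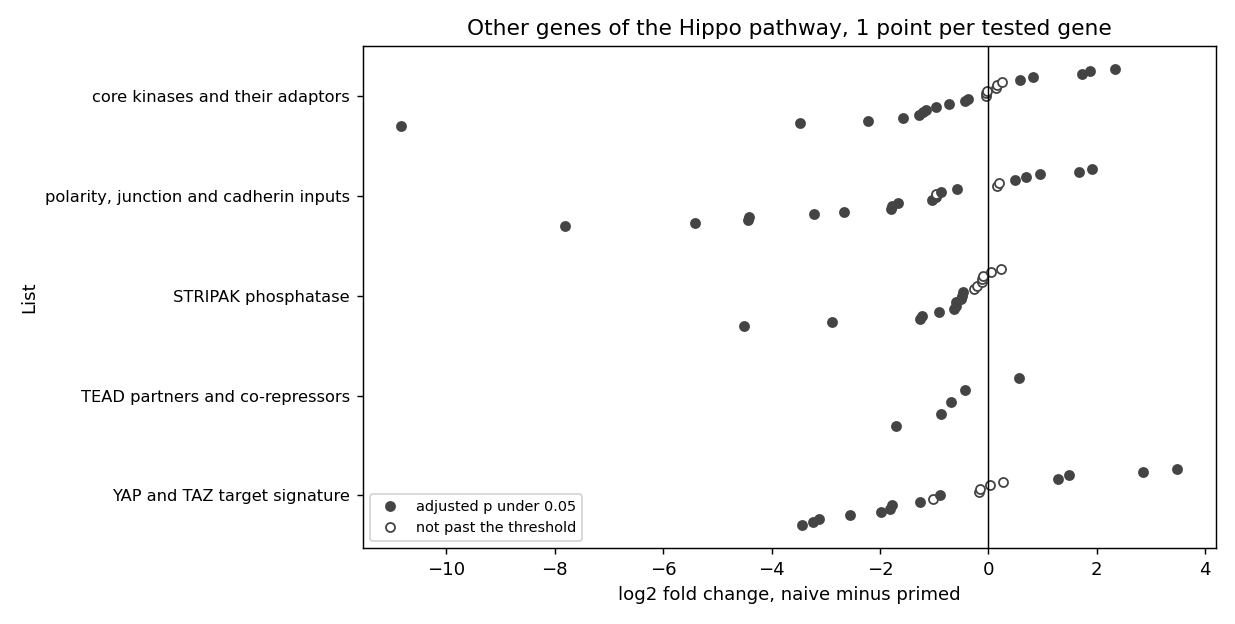
Log2 fold change, naive minus primed, of each tested gene of the 5 lists of other Hippo pathway genes, 1 point per gene, spread vertically within a list only for legibility. Filled points passed an adjusted p of 0.05 over all genes; the STRIPAK list has no filled point above 0, and the target signature has filled points from -3.44 to 3.48.

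Markers of fibroblasts were counted because feeders were of mouse and several targets are abundant in fibroblasts. Their sum over 8 genes was 32.4 to 74.3 CPM in naive and 651 to 684 CPM in primed libraries, and without THY1, which primed cells express, 31.7 to 73.6 against 177 to 194 CPM. The sum rests mainly on THY1, COL1A1 and COL1A2 in primed cells, and on COL1A1, COL1A2 and COL3A1 in naive cells. Of the 8 genes, 5 were lower in naive cells, and COL3A1, DCN and LUM did not pass the threshold, with log2 fold changes of 1.22, 0.87 and 2.15. Among the naive libraries, CA-p38 had the highest COL1A1 and COL3A1, at 28 and 16.6 CPM, and LUM and DCN reached at most 1.17 and 1.21 CPM in any library. Neural markers summed over 6 genes had 243 to 289 CPM in naive and 547 to 645 CPM in primed libraries, most of the latter from NES (427 and 507 CPM). NES and MAP2 were lower and TUBB3 was higher in naive cells (0.52 on the log2 scale, adjusted p = 0.0026), PAX6 and SOX1 did not pass the threshold, and NEUROG2 could not be tested. The part of these sums in the lower level of CCN2 and AMOTL2 was not tested. Endoderm and mesoderm markers summed over 8 genes differed within the primed state, with 11.1 CPM in EOS and 44.4 CPM in CA-p38 cells. The sum was 21.2 to 27.1 CPM in naive cells. Of the 8 genes, 7 were higher in primed CA-p38 than in primed EOS cells. Between the states, GATA4 and TBXT were higher in naive cells (log2 fold changes of 4.51 and 2.37). SOX17, FOXA2 and EOMES were lower (-3.50, -4.14 and -2.79), and GATA6, MIXL1 and MESP1 did not pass the threshold. Of the 18 genes of the target signature, 14 were higher and 4 lower in primed CA-p38 than in primed EOS cells, without a replicate of either. Over all genes with more than 3 counts in both, 54.7% were higher in primed CA-p38 cells, with a median ratio of 1.02. ANKRD1 was 3.11-fold and F3 1.41-fold higher there. AXL was lower, with 21.5 CPM there against 25.9 CPM in primed EOS cells, as was MYOF with 6.85 against 7.13 CPM. CCN2 and AMOTL2 were 1.39-fold and 1.34-fold higher, and LATS2 was at 0.972. All 7 lower genes among the 10 remained past the threshold without either primed library.

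Each naive library was also set against its own primed parent. YAP1 was at 0.407, 0.421, 0.395 and 0.352 of its parent's level in AICAR 1, AICAR 2, CA-p38 and VPA cells, and WWTR1 at 2.64, 2.21, 2.04 and 1.97 times it. TEAD1 was at 0.224 to 0.25, TEAD2 at 0.477 to 0.539 and TEAD3 at 0.225 to 0.333 of the parent's level. AMOTL2 was at 0.184 to 0.381. LATS1 was at 0.609 and 0.763 in the AICAR libraries, 0.492 in CA-p38 and 0.483 in VPA cells. LATS2 ran from 1.06 in VPA to 1.37 in CA-p38 cells. CCN2 was at 0.513 and 0.477 in the AICAR libraries, 0.340 in CA-p38 and 0.359 in VPA cells. CCN1 lay above its parent in the AICAR libraries (1.33 and 1.10) and below it in CA-p38 (0.88) and VPA cells (0.682).

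No Hippo gene passed the threshold in the main comparisons between induction methods. Among the naive libraries, VPA had the lowest level of 6 of the 10 genes, and its fitted difference from the other naive libraries was below 0 for 9 of 10. The median of that difference over all genes was 0.00, and the shares of all genes behind these 2 counts were not taken. In that comparison none of the 10 passed (edgeR, adjusted p from 0.398 to 0.998) with 0.0189% of all genes called. At the same time 1 had an unadjusted p under 0.05, as against 2 with DESeq2 and 1 with limma-voom, which called 0 as well. That gene was CCN1, at 22.3 CPM in VPA and 35.9 to 43.4 CPM in the other naive libraries, with a log2 difference of -0.78 (95% interval -1.23 to -0.34, adjusted p = 0.398). CCN1 passed the threshold with no filter beyond 1 count in any library (-0.80, adjusted p = 0.0413). It also passed without primed EOS (-0.79) and without primed CA-p38 (-0.79). In those fits only AICAR has more than 1 library, so the spread rests on its consecutive passages alone. Over 11 alternatives the log2 difference of CCN1 ran from -0.83 to -0.70. Between CA-p38 and AICAR naive cells edgeR called 0 of the 10 genes, with 0% of all genes called, and DESeq2 and limma-voom called 0 as well. An unadjusted p under 0.05 was found for 1 gene, AMOTL2, at 11.2 CPM in CA-p38 against 15.1 and 17.4 CPM in AICAR cells (log2 difference -0.54, 95% interval -1.04 to -0.04, adjusted p = 1). The interaction of line and state, which asks whether the naive to primed difference differs between the EOS and CA-p38 lines, called 0 of the 10 genes with 0.00377% called over all genes, and 0 with DESeq2 and limma-voom, and 0 had an unadjusted p under 0.05. Its 95% interval for AMOTL2 was -1.67 to 0.07 on the log2 scale. VPA and CA-p38 cells had 1 library each, so their spread was taken from the other libraries. The 95% intervals of the 10 genes together spanned -1.23 to 0.71 on the log2 scale for VPA, -1.04 to 0.67 for CA-p38 against AICAR and -1.67 to 0.86 for the interaction, so a count of 0 does not show that the methods or lines act alike.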

How the data were processed

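The deposited values are whole counts for each Ensembl gene, which the authors made by trimming with Trim Galore 0.4.4 and cutadapt 1.15 and aligning with Bowtie2 2.2.5 to the cDNA and noncoding RNA of Ensembl release 100 (GRCh38), with a mapping quality of at least 1. Any reads of mouse feeders were not separated. From 61222 features, 26 spike-in sequences (at most 1 count in a library) were left out, identifiers that share a name were summed, and 23 columns of other studies were not used. The AICAR libraries are not 1 library deposited again (chi-square of their counts 21.1 per gene over 24681 genes, and 19.8 to 35.9 in the other pairs within a state), which does not show that they are separate cultures. They were counted as 2 naive libraries, and summed in an alternative.

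Naive (n = 4) and primed (n = 2) libraries were tested against each other in edgeR 4.0.16 under R 4.3.3 (TMM scaling, filterByExpr by state, quasi-likelihood test, Benjamini-Hochberg adjustment over 26497 genes, no covariates). Methods were compared in the same way with induction groups. CPM values are TMM-scaled, and CPM per kb uses GENCODE release 44 canonical transcripts. Ratios were tested with exact permutation tests in scipy 1.17.1. Alternatives were DESeq2 1.42.0, limma-voom 3.58.1, other scalings and filters, the parental line as a block, summed AICAR libraries, identifiers kept apart and each library left out. The fits were tested on simulated data in which 100 genes per comparison were changed 2-fold and 100 were changed 4-fold. Of the 2-fold changes, edgeR recovered 71% between the states and 50% for VPA against the other naive libraries. It recovered 40% for CA-p38 against AICAR and 4% for the interaction.

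The genes and lists were chosen with earlier results of these data known. Named by rule were the 10 genes, their paralogs, 8 core parts and, in each list, the 2 highest and 2 lowest log2 fold changes among calls whose mean reached 1 CPM. Marker genes, and the genes most like YAP1, LATS2 and CCN2, were also named.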

Additional observations from a re-analysis of the deposited data

Results flagged for a closer look

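The share of TEAD3 in the summed TEAD1 to TEAD4 level per kb was examined because 1 naive library stood apart from the other 3. It was 3.14% in VPA cells against 2.59%, 2.6% and 2.53% in AICAR 1, AICAR 2 and CA-p38 cells, and the gap to the nearest library was 0.888 of the whole range, above Dixon's 95% critical value for 4 samples. Of 45 values tested this way it was the 1 past that limit, and chance gives such a gap in about 5% of groups. The share lay below 7.27% and 7.99% of the primed libraries in every naive library.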

How the results depend on the processing

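Over 15 alternatives, the count of Hippo genes past the threshold between naive and primed libraries was 8 to 9, that of the other pathway genes 57 to 63 and that of all genes 11311 to 14332. Of 535 single-gene values, 522 kept their direction and side of the threshold. CCN1 turned sign with library totals (0.01) and ranged from -0.26 to 0.08 when each library was left out. STK3 turned sign with library totals (0.08), with at least 10 counts in every library (0.01) and with the parental line as a block (0.01), and ranged from -0.14 to 0.09 with each library left out. CCN3, a gene of few counts, was at -0.76 with limma-voom. None of CCN1, STK3 and CCN3 was past the threshold in any of these. The count of Hippo genes that differed between VPA and the other naive libraries was 1 with no filter and 0 to 1 with each library left out. Over all genes tested, the median difference was 0.11 under TMM, 0.06 under DESeq2 factors and 0.20 under library totals (log2), and 45.7% to 54% of calls were higher in naive cells under the scalings and tests tried. The cause of these changes was not tested. Without a primed library, 1 was left and was assumed to vary like the naive ones. With the parental line as a block, 8 Hippo genes and 13420 of all genes were past the threshold, and with the AICAR libraries summed 8 and 13964. The labels give no replicate numbers shared between the states.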

Other observations

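The 2 primed libraries, 1 of each line, were set side by side. Of the 10 genes, 8 were higher in primed CA-p38 than in primed EOS cells, with a median ratio of 1.17, and over 24345 genes with more than 3 counts in both the median ratio was 1.02 and 54.7% were higher in primed CA-p38. YAP1 and WWTR1 were each 1.14-fold higher there, LATS1 1.31-fold and CCN1 1.25-fold, and TEAD2 and LATS2 were each at 0.972. There is no replicate of either line, so these ratios have no test.

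Among 12604 genes whose mean reached 5 CPM, the patterns most like that of YAP1 over the 6 libraries were those of SPTAN1 (Pearson's r = 0.9996 on log2 CPM), EIF3A and ADAR (0.9993 each). Those most like LATS2 were SETD7 (0.9919), CEP85L (0.9881) and UHRF1BP1 (0.9853), and those most like CCN2 were URB2 (0.9986), LEMD3 and ACTR8 (0.9985 each). The 6 points form a naive and a primed cluster and share the scaling of their library, so the values describe these libraries and carry no p. ACTR8 had 18.6 to 20.9 CPM in naive and 27.3 to 30.6 CPM in primed libraries, a smaller difference than that of CCN2.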
